A study of Bos taurus with 12 samples.

Results

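ATF4, DDIT3, TRIB3, SESN2, ASNS, CHAC1, CEBPB and DDIT4 are genes of the ATF4 amino acid stress response, and their messenger RNA was followed through 12 libraries of bovine embryonic stem cells. They were chosen by symbol, through the Entrez identifiers of the deposited count table. Of these 8 genes 7 were analysed, of 18885 gene entries kept in all, and all 7 passed the filter on low counts. CEBPB was not analysed here. The cells carry the wild-type genotype label and come from the single line F7, with 3 libraries in each of 4 groups, named 1/7MC+Pyr+FGF, 1/7MC+Pyr, 1/7MC and MC. The treatment label of the MC libraries is NC. The series title speaks of feeder layers at low density, of pyruvate and of recombinant human basic fibroblast growth factor (FGF). The labels give neither a meaning for MC nor any dose, and nothing states that replicates were separate cultures, so the p-values speak only of the spread among the libraries at hand, which may be technical.

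ATF4 is a transcription factor of the integrated stress response. When amino acids run short or unfolded proteins load the endoplasmic reticulum, kinases phosphorylate the translation factor eIF2; general translation then slows while the ATF4 message is translated better, and ATF4 protein switches on genes for amino acid supply, transport and tRNA charging. DDIT3 (also called CHOP), TRIB3, CHAC1, ASNS, SESN2 and DDIT4 are among its known targets in mammalian cells. Messenger RNA does not report how much ATF4 protein was made.

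Total counts per library ranged from 27373759 to 44440972. The embryonic stem cell label was checked against part of a list of pluripotency markers: POU5F1 stood at 671 to 1390 CPM (counts scaled to library size), SALL4 at 245 to 496, LIN28A at 301 to 608, DNMT3B at 1019 to 1962, PRDM14 at 57.0 to 146 and NANOG at 34.1 to 113 over the 12 libraries. ZFP42 and DPPA4, also on that list, were left out of this check. The counts of MC replicates 2 and 3 have another pattern than those of the other 10 libraries: of 128 Ensembl identifiers that stand on several entries, 80 to 86 carried differing counts in each of the 10 and 0 did in these 2. Entrez identifiers showed the reverse: of 61 that stand on several entries, 0 carried differing counts in each of the 10 and 53 in each of these 2. The cause was not tested. Most calls and list counts against MC are therefore also given with MC replicate 1 alone, a lone library whose spread is taken from the remaining groups. Fibroblast and feeder markers, 15 genes, summed to 12768 to 18296 CPM in 1/7MC+Pyr+FGF, 18810 to 31083 in 1/7MC+Pyr, 14756 to 22068 in 1/7MC and 4254 to 4427 in MC, and none of them was at 0. In bulk RNA fewer cells of a type and less RNA per cell cannot be told apart.

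Per length, the 7 genes kept nearly the same order in every library. These levels are TPM (transcript shares scaled to the same sum in each library), computed here from counts and the deposited gene lengths so that genes can be set side by side. ATF4 was first in all 12 libraries at 323 to 436 TPM, and its median stood at the 97.3rd percentile of all genes tested. ASNS, which makes asparagine, followed at 155 to 237 TPM and DDIT4, an inhibitor of mTORC1 signalling, at 106 to 187. In the middle lay SESN2, another mTORC1 inhibitor, at 20.2 to 36.7 TPM, and DDIT3, a transcription factor of prolonged stress, at 15.0 to 32.9. This pair is the one place where the order changed: DDIT3 was above SESN2 in 0 of 3 libraries of 1/7MC+Pyr+FGF, 0 of 3 of 1/7MC+Pyr, 2 of 3 of 1/7MC and 3 of 3 of MC. CHAC1, which degrades glutathione, lay at 3.35 to 10.8 TPM, and TRIB3, a pseudokinase, was last everywhere at 1.14 to 4.71 TPM, with its median at the 18th percentile.

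**Figure D1:**
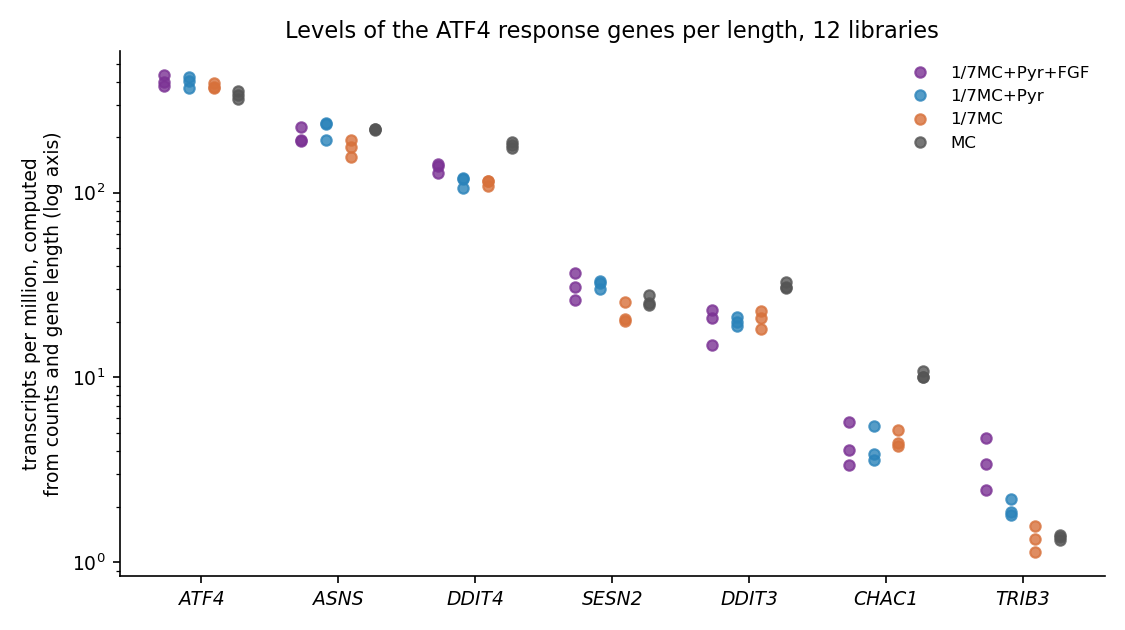
Level of each gene per length in TPM, computed from counts and gene length, on a log axis; each point is 1 library, coloured by group. ATF4 is first at 323 to 436 TPM and TRIB3 last at 1.14 to 4.71 TPM in all 12 libraries, while SESN2 and DDIT3 exchange places.

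ATF4 itself varied little. Its level scaled to library size was 314, 301 and 276 CPM in replicates 1 to 3 of 1/7MC+Pyr+FGF, 248, 299 and 271 CPM in 1/7MC+Pyr, 279, 242 and 257 CPM in 1/7MC, and 243, 241 and 258 CPM in MC. The 1/7MC+Pyr+FGF libraries were all above MC, and every other pair of groups overlapped. The means were 297 ± 19.6, 273 ± 25.5, 259 ± 18.6 and 247 ± 9.11 CPM (SD, n = 3 each) in that order of groups. Against MC the log2 fold change in 1/7MC+Pyr+FGF was 0.27 ± 0.09 (SE; adjusted p = 0.0444 by edgeR's quasi-likelihood test, adjusted over all 13920 genes, as every adjusted p here unless named otherwise). This call was lost in 13 of 19 alternatives, among them MC replicate 1 alone (0.27, adjusted p = 0.271), and leaving out single libraries gave adjusted p between 0.0309 and 0.142; any MC or 1/7MC library, 1/7MC+Pyr replicate 3 and 1/7MC+Pyr+FGF replicates 1 and 2 each ended it. None of the other 5 comparisons passed for ATF4, with log2 fold changes between 0.07 and 0.20.

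**Figure D2:**
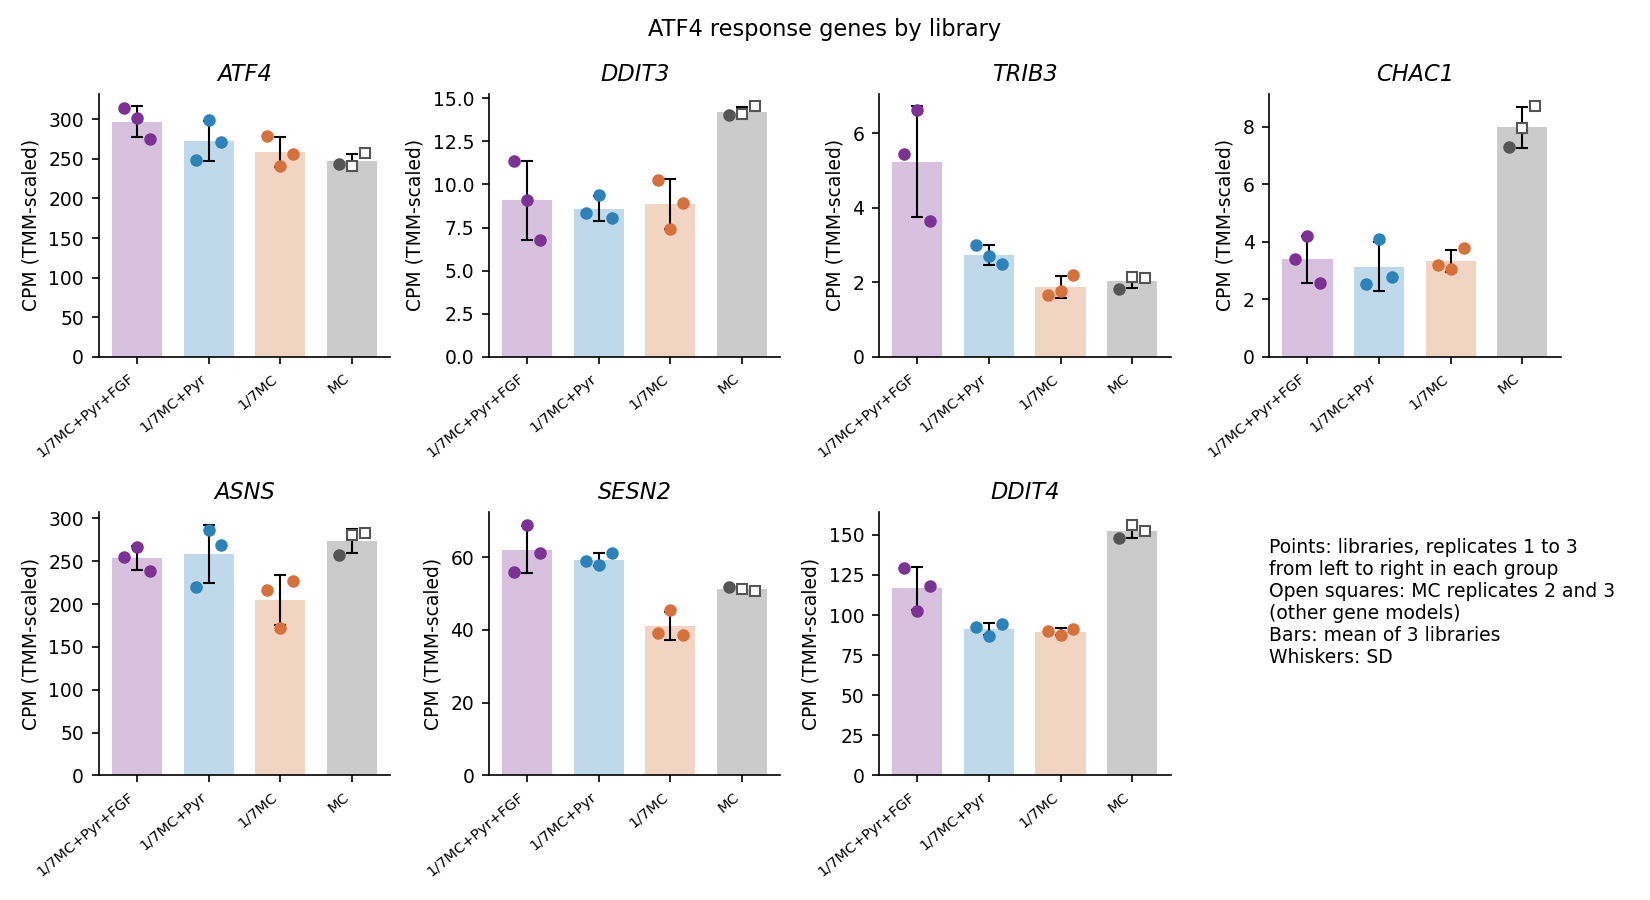
CPM of the 7 genes in every library, 1 panel per gene; bars are means and whiskers SD of 3 libraries, points are replicates 1 to 3 from left to right, and open squares are MC replicates 2 and 3. DDIT3, CHAC1 and DDIT4 are highest in the 3 MC libraries, TRIB3 is highest in the 3 libraries of 1/7MC+Pyr+FGF, and SESN2 is lowest in the 3 libraries of 1/7MC.

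Among the partners and feedback factors of ATF4, DDIT3 was lower in the 3 groups named 1/7MC than in MC, whereas TRIB3 was highest with pyruvate and FGF together. DDIT3 had 11.4, 9.11 and 6.80 CPM in 1/7MC+Pyr+FGF, 8.33, 9.40 and 8.03 CPM in 1/7MC+Pyr, 10.3, 7.40 and 8.95 CPM in 1/7MC, and 14.0, 14.1 and 14.5 CPM in MC. All 3 MC libraries were above the other 9, which overlapped among themselves. DDIT3 fell against MC by 0.64 ± 0.18 on the log2 scale in 1/7MC+Pyr+FGF (adjusted p = 0.0150), by 0.73 ± 0.18 in 1/7MC+Pyr (adjusted p = 0.00899) and by 0.68 ± 0.18 in 1/7MC (adjusted p = 0.00723). With MC replicate 1 alone the sizes were nearly the same, -0.64, -0.69 and -0.65, and none passed (adjusted p = 0.109, 0.0981 and 0.0671). Without 1/7MC+Pyr+FGF replicate 3 the call in that group was also lost (adjusted p = 0.0542). Between those 3 groups its log2 fold changes lay between -0.04 and 0.08 and none passed.

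TRIB3, which is induced by ATF4 and DDIT3 and in turn restrains ATF4 activity, had 5.43, 6.63 and 3.66 CPM in 1/7MC+Pyr+FGF, 3.02, 2.70 and 2.49 CPM in 1/7MC+Pyr, 1.65, 1.78 and 2.19 CPM in 1/7MC, and 1.82, 2.14 and 2.12 CPM in MC. All 3 libraries with FGF were above the other 9, the 3 with pyruvate alone came next without overlap, and 1/7MC and MC overlapped. These levels rest on 129 to 232 reads per library in 1/7MC+Pyr+FGF, 70 to 94 in 1/7MC+Pyr, 49 to 76 in 1/7MC and 57 to 67 in MC. TRIB3 rose 2.79-fold in 1/7MC+Pyr+FGF against 1/7MC (log2 1.48 ± 0.22, adjusted p = 0.000423) and 2.59-fold against MC (log2 1.37 ± 0.22, adjusted p = 0.000649; 1.51, adjusted p = 0.0130 with MC replicate 1 alone), and both calls held in all 19 alternatives. Against 1/7MC+Pyr it rose 1.91-fold (log2 0.94 ± 0.22, adjusted p = 0.0385), but this call was lost in 12 of 19 alternatives, and leaving out single libraries gave adjusted p between 0.0110 and 0.155; MC replicates 2 and 3, any 1/7MC or 1/7MC+Pyr library and 1/7MC+Pyr+FGF replicates 1 and 2 each ended it. Its value in 1/7MC+Pyr against 1/7MC, 0.54 ± 0.22, did not pass (adjusted p = 0.120), nor did that in 1/7MC+Pyr against MC, 0.44 ± 0.23 (adjusted p = 0.167), or in 1/7MC against MC, -0.11 ± 0.23 (adjusted p = 0.733).

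The enzymes differed from each other. CHAC1 had 3.40, 4.21 and 2.58 CPM in 1/7MC+Pyr+FGF, 2.54, 4.11 and 2.77 CPM in 1/7MC+Pyr, 3.20, 3.05 and 3.78 CPM in 1/7MC, and 7.28, 7.95 and 8.72 CPM in MC. All 3 MC libraries were above the other 9, among which the groups overlapped. CHAC1 fell against MC, with log2 fold changes of -1.23 ± 0.21 in 1/7MC+Pyr+FGF (adjusted p = 0.00110), -1.34 ± 0.22 in 1/7MC+Pyr (adjusted p = 0.000666) and -1.25 ± 0.21 in 1/7MC (adjusted p = 0.000498). With MC replicate 1 alone the values were -1.12, -1.19 and -1.11 (adjusted p = 0.0231, 0.0184 and 0.0130), and all 3 calls held in all 19 alternatives. Its log2 fold changes between the 3 groups other than MC were 0.11 ± 0.22, -0.09 ± 0.22 and 0.02 ± 0.22 for 1/7MC+Pyr+FGF against 1/7MC+Pyr, 1/7MC+Pyr against 1/7MC and 1/7MC+Pyr+FGF against 1/7MC, and none passed.

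ASNS, asparagine synthetase, had 255, 267 and 239 CPM in 1/7MC+Pyr+FGF, 220.1, 286 and 269 CPM in 1/7MC+Pyr, 216, 172 and 226 CPM in 1/7MC, and 257, 280.1 and 283 CPM in MC. The 1/7MC libraries were below all libraries of MC and of 1/7MC+Pyr+FGF and overlapped those of 1/7MC+Pyr. ASNS fell in 1/7MC against MC by 0.42 ± 0.12 (adjusted p = 0.0131; -0.32, adjusted p = 0.205 with MC replicate 1 alone). Against 1/7MC its values were 0.31 ± 0.12 in 1/7MC+Pyr+FGF (adjusted p = 0.0760) and 0.34 ± 0.12 in 1/7MC+Pyr (adjusted p = 0.0728), neither past the threshold in edgeR. DESeq2 called the second, and without 1/7MC+Pyr replicate 1 both passed in edgeR (adjusted p = 0.0455 and 0.0274).

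Of the mTORC1 inhibitors, SESN2, which senses leucine, was lowest in 1/7MC, and DDIT4 (also called REDD1) was highest in MC. SESN2 had 56.0, 69.0 and 61.2 CPM in 1/7MC+Pyr+FGF, 58.9, 57.8 and 61.2 CPM in 1/7MC+Pyr, 39.2, 45.5 and 38.6 CPM in 1/7MC, and 51.8, 51.2 and 50.7 CPM in MC. The 1/7MC libraries were below the other 9 and the MC libraries lay between them and the 6 with pyruvate, which overlapped. SESN2 rose 1.51-fold in 1/7MC+Pyr+FGF against 1/7MC (log2 0.59 ± 0.10, adjusted p = 0.000822) and 1.44-fold in 1/7MC+Pyr against 1/7MC (log2 0.53 ± 0.10, adjusted p = 0.00266), both in all 19 alternatives. These 2 comparisons share the 1/7MC libraries. Among all genes 11.9% rose and 15.7% fell in 1/7MC+Pyr+FGF, and 8.08% and 10.1% in 1/7MC+Pyr. In the same comparisons 6 of 8 pluripotency markers rose and 0 fell, with summed levels of 3235 to 3658 CPM in 1/7MC+Pyr+FGF, 3909 to 4178 in 1/7MC+Pyr and 2340 to 2663 in 1/7MC, while 5 of 7 neural ectoderm markers fell and 0 rose, with medians of -3.20 in 1/7MC+Pyr+FGF and -2.88 in 1/7MC+Pyr. SIX6, an eye-field transcription factor, fell in both, with log2 fold changes of -4.74 ± 0.27 in 1/7MC+Pyr+FGF and -4.94 ± 0.28 in 1/7MC+Pyr (adjusted p = 8.23e-07 and 8.06e-07). Summed, the 7 neural ectoderm markers stood at 823 to 1155 CPM in 1/7MC+Pyr+FGF, 877 to 1091 in 1/7MC+Pyr, 1085 to 1274 in 1/7MC and 834 to 988 in MC, with no gene of either list at 0 in all libraries of a group. The part of both marker lists in the SESN2 values was not tested.

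Against MC, SESN2 fell in 1/7MC by 0.32 ± 0.10 (adjusted p = 0.0179; -0.32, adjusted p = 0.156 with MC replicate 1 alone) and rose in 1/7MC+Pyr+FGF by 0.28 ± 0.10 (adjusted p = 0.0454; 0.24, adjusted p = 0.360 with MC replicate 1 alone). The first call was lost in 4 of 19 alternatives, also without MC replicate 2 (adjusted p = 0.0525) and without 1/7MC replicate 1 or 3 (adjusted p = 0.0682 and 0.0593). The second was lost in 15 of 19, where leaving out single libraries gave adjusted p between 0.0240 and 0.141; any MC library, 1/7MC replicates 1 and 3, 1/7MC+Pyr replicates 2 and 3 and 1/7MC+Pyr+FGF replicates 2 and 3 each ended it. The value in 1/7MC+Pyr against MC, 0.21 ± 0.10, did not pass (adjusted p = 0.124).

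DDIT4 had 129.6, 102 and 118 CPM in 1/7MC+Pyr+FGF, 92.6, 87.1 and 94.2 CPM in 1/7MC+Pyr, 89.8, 87.8 and 91.6 CPM in 1/7MC, and 148, 156 and 153 CPM in MC. The MC libraries were above the other 9, the libraries with FGF came next without overlap, and 1/7MC+Pyr overlapped 1/7MC. DDIT4 fell against MC by 0.38 ± 0.09 in 1/7MC+Pyr+FGF (adjusted p = 0.00655), by 0.74 ± 0.09 in 1/7MC+Pyr (adjusted p = 7.75e-05) and by 0.76 ± 0.09 in 1/7MC (adjusted p = 2.68e-05). With MC replicate 1 alone the last 2 kept their calls (-0.68, adjusted p = 0.00617, and -0.71, adjusted p = 0.00218), and the first did not (-0.36, adjusted p = 0.124). DDIT4 rose 1.30-fold in 1/7MC+Pyr+FGF against 1/7MC (log2 0.38 ± 0.09, adjusted p = 0.00827), in all 19 alternatives. Against 1/7MC+Pyr the value was 0.35 ± 0.09 and missed the threshold (adjusted p = 0.0586), while DESeq2 called it and edgeR did without MC replicate 1 (adjusted p = 0.0442) or 1/7MC+Pyr+FGF replicate 2 (adjusted p = 0.0248).

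Counted together, 0 of the 7 genes rose and 5 fell in 1/7MC against MC, and both counts were the same at an unadjusted p under 0.05, with 27.1% of all genes up and 25.1% down, and in DESeq2, with 24.6% and 23.2%. Of all 13920 genes 23.7% rose and 21.3% fell there, and with MC replicate 1 alone 0 of the 7 rose and 2 fell, against 14% and 9.96% of 14361 genes. The median of the 7 was -0.42 on the log2 scale (-0.32 with MC replicate 1 alone) and that of all genes 0.00. All 15 fibroblast and feeder markers rose in the same comparison, by a median of 1.92, as did 14 of them in both other comparisons with MC; with MC replicate 1 alone the counts were 15 in 1/7MC, 13 in 1/7MC+Pyr and 11 in 1/7MC+Pyr+FGF. In 1/7MC against MC pluripotency markers had 5 falls and 0 rises among 8 and a median of -0.66 (4 and 0 with MC replicate 1 alone), and neural ectoderm markers had 4 rises and 1 fall among 7 and a median of 1.19 (4 and 0). SIX6 rose by 3.56 ± 0.25 there (adjusted p = 4.46e-07; 3.56, adjusted p = 1.73e-05 with MC replicate 1 alone). In 1/7MC+Pyr and in 1/7MC+Pyr+FGF against MC 0 of the 7 neural markers rose and 4 fell (0 and 3 with MC replicate 1 alone). The part of these 3 marker lists in the falls of DDIT3, CHAC1 and DDIT4 was not tested. The comparison of 1/7MC+Pyr with MC had 0 rises and 3 falls, with backgrounds of 15.2% and 13.2%; an unadjusted p under 0.05 (backgrounds of 21.1% and 19.3%) and DESeq2 (17.2% and 15.3%) gave the same counts, and MC replicate 1 alone left 0 rises and 2 falls, against 6.56% and 3.15% of genes. That of 1/7MC+Pyr+FGF with MC had 3 rises and 3 falls, with backgrounds of 17.1% and 15.4%. An unadjusted p under 0.05 (23.3% and 20.5%) and DESeq2 (19% and 17.5%) gave the same counts there, while MC replicate 1 alone left TRIB3 up and CHAC1 down, against 5.86% and 6.13%.

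Without MC in the contrast, falls were not seen. What pyruvate adds is asked by 1/7MC+Pyr against 1/7MC: SESN2 rose and 0 of the 7 fell, with 8.08% of all genes up and 10.1% down; at an unadjusted p under 0.05 there were 3 rises and 0 falls, with 14.4% and 16.7% of all genes, and DESeq2 called 2 and 0, with 10.4% and 11.8%. What FGF adds is asked by 1/7MC+Pyr+FGF against 1/7MC+Pyr: TRIB3 rose and 0 fell, with 0.639% of all genes up and 2.12% down; 2 rises and 0 falls came both at an unadjusted p under 0.05, with 8.46% and 10.4% of all genes, and in DESeq2, with 2.04% and 4.46%. With both additions together, in 1/7MC+Pyr+FGF against 1/7MC, TRIB3, SESN2 and DDIT4 rose and 0 fell, with 11.9% up and 15.7% down; the counts were 4 and 0 at an unadjusted p under 0.05, with 18.2% and 20.8% of all genes, and 3 and 0 in DESeq2, with 14.1% and 17.4%. The median of the 7 in this last comparison was 0.31, against 0.01 for all genes. Fibroblast and feeder markers rose in 1 case and fell in 5 of 15 there, and their part was not tested.

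**Figure D3:**
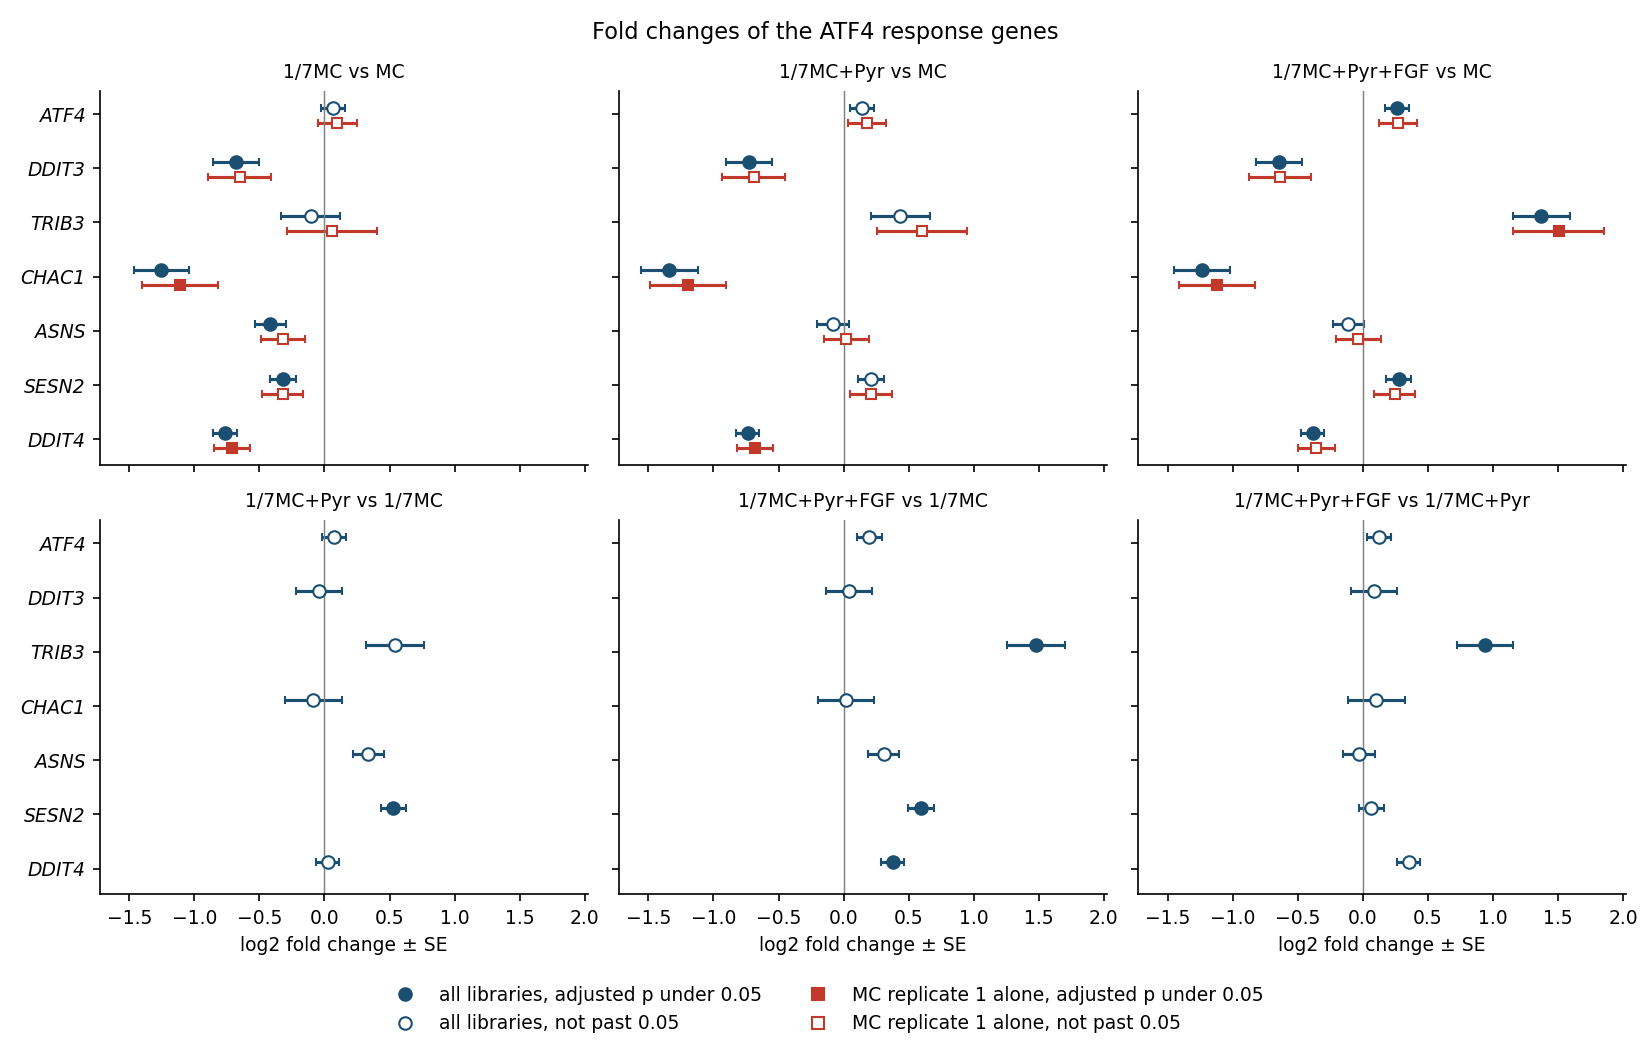
Log2 fold change of each gene with its SE in the 6 comparisons; circles use all 12 libraries, squares use MC replicate 1 as the only MC library, and filled symbols passed adjusted p under 0.05. CHAC1 lies between -1.34 and -1.11 in all comparisons with MC by either fit, and TRIB3 reaches 1.48 in 1/7MC+Pyr+FGF against 1/7MC.

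Other genes of the pathway were read from lists. Of 32 other ATF4 targets tested, 14 rose and 3 fell in 1/7MC+Pyr+FGF against 1/7MC, with a median of 0.39. There 11.9% of all genes rose and 15.7% fell. In 1/7MC+Pyr against 1/7MC 9 targets rose and 3 fell, with a median of 0.19, against 8.08% and 10.1% of all genes. ATF3, a stress-induced partner of ATF4, rose in both, by 1.04 ± 0.16 to 15.2 ± 1.12 CPM in 1/7MC+Pyr+FGF (adjusted p = 0.000514) and by 0.69 ± 0.16 to 11.95 ± 2.38 CPM in 1/7MC+Pyr (adjusted p = 0.0102), against 7.39 ± 1.37 CPM in 1/7MC (SD, n = 3 each). SLC7A11, the cystine transporter, rose by 1.57 ± 0.39 in 1/7MC+Pyr+FGF against 1/7MC (adjusted p = 0.0109). Its levels were low, at 2.23 ± 1.04 against 0.74 ± 0.28 CPM (SD, n = 3 each). STC2, a secreted glycoprotein, rose by 1.14 ± 0.23 in 1/7MC+Pyr against 1/7MC (adjusted p = 0.00484). Genes of the same list also went down. TXNIP, better known as a glucose-responsive gene, fell by 1.62 ± 0.13 in 1/7MC+Pyr+FGF and by 1.23 ± 0.13 in 1/7MC+Pyr against 1/7MC (adjusted p = 5.78e-06 and 5.32e-05). NUPR1, a stress-induced chromatin protein, fell by 1.44 ± 0.29 in the first of these (adjusted p = 0.00345), at 0.92 ± 0.33 against 2.53 ± 0.16 CPM. PSAT1, an aminotransferase of serine synthesis, fell in 1/7MC+Pyr against 1/7MC (-1.22 ± 0.13, adjusted p = 6.10e-05) and rose in 1/7MC+Pyr+FGF against 1/7MC+Pyr by 0.87 ± 0.13 (adjusted p = 0.00550). Leaving out single libraries kept the first count at 10 to 15 rises and moved the second between 4 and 12, the 4 without 1/7MC replicate 1 or 3 or without 1/7MC+Pyr replicate 3.

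Against MC, 8 of the 32 targets rose and 9 fell in 1/7MC, with a median of -0.03. Among all genes 23.7% rose and 21.3% fell there. In 1/7MC+Pyr 9 rose and 2 fell, with a median of 0.16, against 15.2% and 13.2% of all genes. In 1/7MC+Pyr+FGF 11 rose and 4 fell, with a median of 0.32, against 17.1% and 15.4%. With MC replicate 1 alone fewer targets and fewer of all genes passed, and the medians were -0.05, 0.15 and 0.30 in that order. The rises in 1/7MC+Pyr were 5 without MC replicate 2 or 1/7MC+Pyr replicate 1, and those in 1/7MC+Pyr+FGF were 7 without MC replicate 3. NUPR1 rose against MC by 2.795 ± 0.336 in 1/7MC and 2.254 ± 0.342 in 1/7MC+Pyr (adjusted p = 3.09e-05 and 0.00042). In 1/7MC+Pyr+FGF it rose by 1.351 ± 0.352 (adjusted p = 0.0118). With MC replicate 1 alone NUPR1 had 3.03 in 1/7MC and 2.49 in 1/7MC+Pyr. Its level in MC was low, at 0.36 ± 0.17 CPM (SD, n = 3). STC2 fell in 1/7MC against MC (-1.505 ± 0.233, adjusted p = 0.000233), with -1.11 for MC replicate 1 alone. ATF3 fell against MC by 0.84 ± 0.16 in 1/7MC+Pyr+FGF, 1.19 ± 0.16 in 1/7MC+Pyr and 1.89 ± 0.16 in 1/7MC (adjusted p = 0.00166, 0.000140 and 1.94e-06). It stood at 27.3 ± 1.28 CPM in MC (SD, n = 3), and all 3 calls passed with MC replicate 1 alone (adjusted p = 0.0280, 0.00383 and 4.11e-05). ALDH1L2, a mitochondrial folate enzyme, rose by 1.61 ± 0.12 in 1/7MC+Pyr+FGF against MC (adjusted p = 2.36e-06; 1.58, adjusted p = 0.000208 with MC replicate 1 alone).

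The aminoacyl-tRNA synthetases, which charge tRNAs with amino acids, rose in 11 of 20 cases and fell in 0 in 1/7MC+Pyr+FGF against 1/7MC (14 and 0 at an unadjusted p under 0.05, 12 and 0 in DESeq2), with a median of 0.31. In this comparison 11.9% of all genes rose and 15.7% fell. The shares were 18.2% and 20.8% at an unadjusted p under 0.05, and 14.1% and 17.4% in DESeq2. GARS1, which charges glycine, rose by 0.49 ± 0.10 there (adjusted p = 0.00316). The count moved between 3 and 14 when single libraries were left out. It was lowest without 1/7MC replicate 2, 5 without 1/7MC replicate 1 or 3, 6 without 1/7MC+Pyr replicate 3 or 1/7MC+Pyr+FGF replicate 1, and 7 without 1/7MC+Pyr+FGF replicate 2. Chaperones of the endoplasmic reticulum and targets of XBP1 or ATF6, which answer unfolded proteins, rose in 11 of 17 cases and fell in 0 (11 and 0 at an unadjusted p under 0.05 and in DESeq2), with a median of 0.36, and without 1/7MC replicate 3 the rises were 7. HSPA5, the main chaperone there, rose by 0.74 ± 0.12 (adjusted p = 0.000612) and HSP90B1, another chaperone, by 0.66 ± 0.10 (adjusted p = 0.000439).

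With pyruvate alone the counts of both lists were smaller and the rises hung on single libraries. The share of all genes that rose was smaller too, at 8.08%, with 10.1% falling. The shares were 14.4% and 16.7% at an unadjusted p under 0.05, and 10.4% and 11.8% in DESeq2. Of the 17 chaperones and targets 6 rose and 0 fell in 1/7MC+Pyr against 1/7MC (10 and 0 at an unadjusted p under 0.05, 8 and 0 in DESeq2), with 0 rises without 1/7MC replicate 3, 2 without 1/7MC+Pyr replicate 3 and 3 without replicate 1 of either group. Of 20 synthetases 4 rose and 0 fell (8 and 0 unadjusted, 5 and 0 in DESeq2), and leaving out single libraries gave 0 to 4 rises. HSPA5 rose by 0.51 ± 0.12 (adjusted p = 0.00928), and by 0.44 without 1/7MC replicate 3 (adjusted p = 0.0503). Between 1/7MC+Pyr+FGF and 1/7MC+Pyr neither list had a call in edgeR (4 and 5 rises, 0 falls at an unadjusted p under 0.05, and 0 and 1 rises in DESeq2, for the chaperones and the synthetases in that order). Among all genes only 0.639% rose and 2.12% fell there in edgeR. The shares were 8.46% and 10.4% at an unadjusted p under 0.05, and 2.04% and 4.46% in DESeq2.

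In 1/7MC against MC, synthetases fell in 6 of 20 cases and rose in 0 (7 falls and 0 rises both at an unadjusted p under 0.05 and in DESeq2), with VARS1, which charges valine, at -0.74 ± 0.10 (adjusted p = 9.97e-05). Among all genes 23.7% rose and 21.3% fell there. The shares were 27.1% and 25.1% at an unadjusted p under 0.05, and 24.6% and 23.2% in DESeq2. With MC replicate 1 alone VARS1 was the 1 synthetase that fell (-0.48, adjusted p = 0.0197). HSPA5 fell by 0.71 ± 0.12 (adjusted p = 0.000319; -0.50, adjusted p = 0.0425 with MC replicate 1 alone), one of 4 falls beside 2 rises among the 17 chaperones and targets (2 falls and 1 rise with MC replicate 1 alone).

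**Figure D4:**
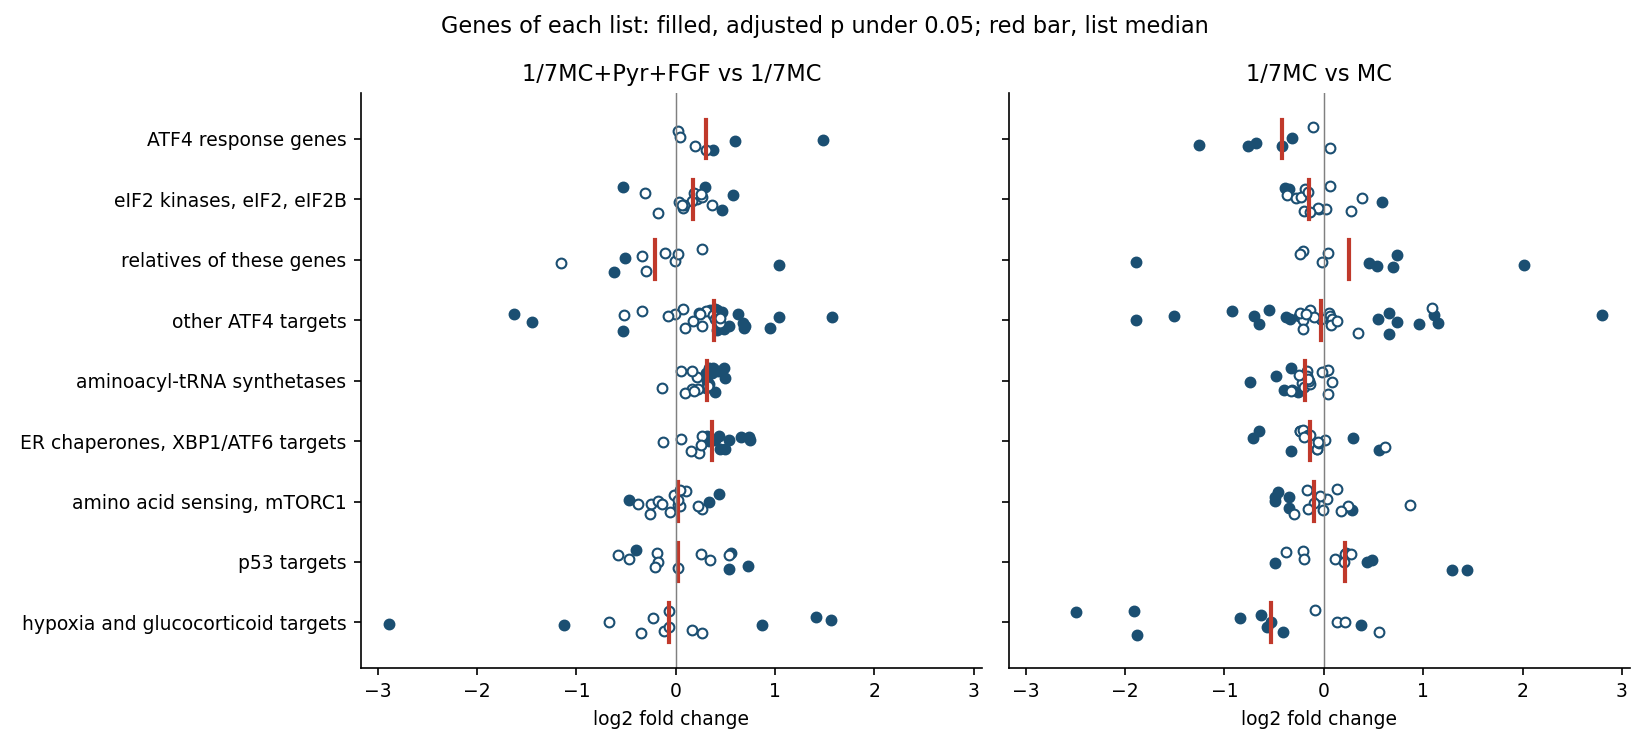
Log2 fold change of every tested gene of each list in 1/7MC+Pyr+FGF against 1/7MC (left) and in 1/7MC against MC (right), with filled points for adjusted p under 0.05 and a red bar for the list median. On the left the medians of other ATF4 targets, synthetases and endoplasmic reticulum (ER) genes are 0.39, 0.31 and 0.36; on the right the median of the 7 genes is -0.42.

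Upstream of ATF4 stand 16 genes for eIF2 kinases, eIF2, its exchange factor and its phosphatase subunits. There were 3 rises and 1 fall among them in 1/7MC+Pyr+FGF against 1/7MC, where 11.9% of all genes rose and 15.7% fell, and 1 rise and 1 fall in 1/7MC+Pyr against 1/7MC, where 8.08% rose and 10.1% fell. The 3 rises were 0 without 1/7MC replicate 3 and 1 without 1/7MC replicate 2, 1/7MC+Pyr replicate 3 or 1/7MC+Pyr+FGF replicate 1. EIF2AK3 (PERK), the kinase that answers unfolded proteins, rose in both, by 0.46 ± 0.15 (adjusted p = 0.0368) and by 0.66 ± 0.15 (adjusted p = 0.00955). PPP1R15A (GADD34), the stress-induced subunit that removes the phosphate from eIF2 and is an ATF4 target itself, fell in both, by 0.53 ± 0.10 (adjusted p = 0.00158) and by 0.39 ± 0.10 (adjusted p = 0.0147); the second call was lost without 1/7MC replicate 1 (adjusted p = 0.0603) or 1/7MC+Pyr replicate 3 (adjusted p = 0.0578). In 1/7MC against MC 1 of the 16 rose and 2 fell, where 23.7% of all genes rose and 21.3% fell. The gene that rose was EIF2AK2, another eIF2 kinase, by 0.59 ± 0.13 (adjusted p = 0.00233; 0.54 with MC replicate 1 alone). With MC replicate 1 alone fewer of the 16 and fewer of all genes passed. The median of the 16 was -0.15, and -0.08 with MC replicate 1 alone. The rise of EIF2AK3 in 1/7MC+Pyr+FGF was lost without 1/7MC replicate 1 or 3 (EIF2AK3 adjusted p = 0.129 and 0.123), without 1/7MC+Pyr replicate 3 (adjusted p = 0.0516) and without 1/7MC+Pyr+FGF replicate 2 (adjusted p = 0.145).

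Of 10 relatives of the 7 genes tested, 1 rose and 2 fell in 1/7MC+Pyr+FGF against 1/7MC (1 and 4 without MC replicate 1). Among all genes 11.9% rose and 15.7% fell there. The relative that rose was ATF3, which also stands on the list of other ATF4 targets and is described above. DDIT4L, the paralog of DDIT4, fell in 1/7MC+Pyr+FGF against 1/7MC by 0.63 ± 0.18 (adjusted p = 0.0223), the comparison in which DDIT4 rose, and in 1/7MC+Pyr against 1/7MC by 1.00 ± 0.18 (adjusted p = 0.00255). The first of these calls was lost without 1/7MC replicate 2 or 3 or 1/7MC+Pyr+FGF replicate 2 or 3 (highest adjusted p = 0.0809). CEBPD, of the family of CEBPB, fell by 0.51 ± 0.11 in 1/7MC+Pyr+FGF against 1/7MC (adjusted p = 0.00453). SESN3, a paralog of SESN2, rose by 2.02 ± 0.48 in 1/7MC against MC (adjusted p = 0.00438), a value that was 0.97 (adjusted p = 0.0108) with MC replicate 1 alone.

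Some of the 7 genes answer to other regulators as well: DDIT4 to hypoxia and glucocorticoids, SESN2 and DDIT4 to p53. The counts of these lists stand against 11.9% of all genes up and 15.7% down in 1/7MC+Pyr+FGF against 1/7MC, and 23.7% up and 21.3% down in 1/7MC against MC (14% and 9.96% with MC replicate 1 alone). In 1/7MC against MC, 8 of 13 hypoxia and glucocorticoid targets fell and 1 rose, with a median of -0.53 (5 falls and 1 rise with MC replicate 1 alone). BNIP3, a mitophagy receptor, fell by 2.50 ± 0.23 (adjusted p = 3.86e-06; -2.58, adjusted p = 0.000176 with MC replicate 1 alone) and CA9, a carbonic anhydrase, by 1.89 ± 0.24 (adjusted p = 4.90e-05; -1.76, adjusted p = 0.00193). In 1/7MC+Pyr+FGF against 1/7MC 3 of the 13 rose and 2 fell. EGLN3, an oxygen-sensing hydroxylase, rose by 1.41 ± 0.08 (adjusted p = 4.88e-07). The 2 that fell were BNIP3 (-2.88 ± 0.33, adjusted p = 5.93e-05) and CA9, which were also lower in 1/7MC than in MC. BNIP3 levels were low there, at 0.12 ± 0.05 against 0.89 ± 0.05 CPM (SD). Of 13 p53 targets 3 rose and 1 fell in the comparison of 1/7MC+Pyr+FGF with 1/7MC, CDKN1A, a cell cycle inhibitor, by 0.55 ± 0.08 (adjusted p = 0.000243), and 4 rose and 1 fell in 1/7MC against MC (2 and 2 with MC replicate 1 alone), where CDKN1A fell by 0.49 ± 0.08 (adjusted p = 0.000234; -0.46, adjusted p = 0.0193). ZMAT3, an RNA-binding protein, rose there by 1.44 ± 0.40 (adjusted p = 0.0109) and BTG2, an antiproliferative factor, by 1.29 ± 0.35 (adjusted p = 0.00992), and with MC replicate 1 alone neither passed (0.48 and 0.41, adjusted p = 0.0736 and 0.0709). Of 17 genes of amino acid sensing upstream of mTORC1, 2 rose and 1 fell in 1/7MC+Pyr+FGF against 1/7MC, and 1 rose and 5 fell in 1/7MC against MC (0 and 1 with MC replicate 1 alone). With single libraries left out the p53 counts in 1/7MC+Pyr+FGF against 1/7MC reached 5 rises and 3 falls (without MC replicate 1), and the sensing counts there fell to 0 and 0 (without 1/7MC replicate 2 or 1/7MC+Pyr+FGF replicate 1).

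Likeness across libraries differed from pair to pair of the 7 genes. Over the 10 libraries other than MC replicates 2 and 3, Pearson's r of log2 CPM was 0.80 for DDIT3 and CHAC1, 0.72 for TRIB3 and SESN2 and 0.71 for ATF4 and TRIB3. Without any MC library (9 libraries) these values were 0.55, 0.75 and 0.66, the first being lower once MC replicate 1 was left out. ATF4 and CHAC1 had r = -0.06 over the 10 libraries and 0.53 over the 9, and CHAC1 and DDIT4 had 0.52 and -0.13. Libraries of 1 group share their treatment, so these are descriptions and not tests. The closest profiles were picked as the highest r among all genes tested, so high values arise by selection, and they too are descriptions. The genes whose profile over the 10 libraries was most like that of ATF4 were IDH3A, a subunit of an enzyme of the citric acid cycle (r = 0.95), KANSL2 (0.95), NUFIP1 (0.95), EEF1AKMT2 (0.94) and MTHFD2, a mitochondrial folate enzyme (0.94). The group means of ATF4 had a range of only 0.26 on the log2 scale. Nearest to TRIB3, which had the widest range of group means (1.42 on the log2 scale), were RDH11 (0.96), SLC35B1 (0.96), AACS, an enzyme that activates acetoacetate (0.96), POLR3D (0.95) and LPL, lipoprotein lipase (0.95).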

How the data were processed

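Per the labels' protocols, poly-A RNA was prepared with a NEBNext Ultra kit and no strand-marking step is stated, so overlapping and antisense genes cannot be told apart. The tools named are HISAT2 2.1.0, featureCounts, Subread 2.0 and fastp 0.19.7, on build bosTau9, per the submitters' processing notes; the gene annotation is not given in the sources used here. The authors deposited whole-number counts per gene without normalisation. A second deposited table was not used here. Of 19285 entries, 400 sharing an identifier with another entry were left out (1.07% to 1.40% of a library's counts). Symbols came from Entrez identifiers through a RefSeq gene table of another assembly, so no coordinates are given.

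Counts were scaled by trimmed means (TMM), filtered with filterByExpr, and tested with edgeR 4.0.16 (quasi-likelihood F test, 1 coefficient per group, all 12 libraries), with Benjamini-Hochberg adjustment over 13920 genes (14361 where MC is replicate 1 alone). Changed means adjusted p under 0.05. Dividing the log2 fold change by the root of F gave its SE. Log2 CPM used a prior count of 2. Fold changes put the first-named group over the second. The 19 alternatives per gene were DESeq2 1.42.0, DESeq2's size factors, no and a stricter low-count filter, the replicate number as a block, the compared groups alone, the MC libraries left out or cut to replicate 1, and leaving out each library. The analysis, tested on simulated counts, ran in R 4.3.3 and Python 3.11.15. The genes, the lists and the rule for named genes (all 7 members; up to 3 passing genes of each list with the largest change in a comparison; the 5 closest profiles) were chosen with earlier results of these data known. Some genes of the lists were not analysed here.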

Additional observations from a re-analysis of the deposited data

How the results depend on the processing

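Of the fold changes of the 7 genes under all alternatives, 723 kept direction and side of the threshold, 50 no longer passed, 6 newly passed and 19 changed sign. With MC replicate 1 alone, 3438, 1394 and 1723 genes changed in 1/7MC, 1/7MC+Pyr and 1/7MC+Pyr+FGF against MC, compared with 6268, 3949 and 4527 in the main analysis; fewer MC libraries enter that fit. Of the 7 genes 2 changed in the first and 2 in the last, and TRIB3 in 1/7MC (0.055) and ASNS in 1/7MC+Pyr (0.022) changed sign without passing. DESeq2 called 902 genes in 1/7MC+Pyr+FGF against 1/7MC+Pyr, where edgeR called 384, and 2 of the 7 genes both there and in 1/7MC+Pyr against 1/7MC; the cause was not tested. Replicate numbers showed no pairing common to all groups. Of 18 correlations between same-numbered libraries 2 were above 0.1, and the best match had the same number in 9 of 36 cases. Both of the 2 lay between 1/7MC+Pyr+FGF and 1/7MC, at 0.23 for replicate 1 and 0.33 for replicate 2. Whether these 2 groups were paired was not tested. The calls of TRIB3, SESN2 and DDIT4 in 1/7MC+Pyr+FGF against 1/7MC held with the replicate number as a block. With the replicate block, 1/7MC+Pyr+FGF against 1/7MC+Pyr had 181 changed genes and 0 of the 7, and the fit of those 2 groups alone also called 0 of the 7.

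Leaving out single libraries gave 1423 to 3137 changed genes in 1/7MC+Pyr against 1/7MC (1 to 2 of the 7), 127 to 736 in 1/7MC+Pyr+FGF against 1/7MC+Pyr (0 to 2), 2571 to 5151 in 1/7MC+Pyr against MC and 3015 to 5337 in 1/7MC+Pyr+FGF against MC. The lowest counts came without 1/7MC+Pyr replicate 3, without 1/7MC+Pyr replicate 1, and, in both comparisons with MC, without MC replicate 2. Sign changes of values that never passed had these ranges. In 1/7MC+Pyr against 1/7MC, DDIT3 ran from -0.16 to 0.071 and CHAC1 from -0.33 to 0.046. In 1/7MC+Pyr+FGF against 1/7MC+Pyr, DDIT3 ran from -0.11 to 0.26, SESN2 from -0.016 to 0.13, ASNS from -0.13 to 0.052 and CHAC1 from -0.072 to 0.35. In 1/7MC+Pyr+FGF against 1/7MC, DDIT3 ran from -0.16 to 0.21 and CHAC1 from -0.16 to 0.18, and ASNS in 1/7MC+Pyr against MC ran from -0.17 to 0.023. At 49 to 94 reads per library outside 1/7MC+Pyr+FGF, counting error alone widens TRIB3 values.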
